A study of Mus musculus with 8 samples.

Results

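Glycolysis, the pentose phosphate pathway and the tricarboxylic acid (TCA) cycle were followed through the transcripts of their enzymes in mouse oligodendrocyte progenitor cells (OPCs) and in the oligodendrocytes differentiated from them. The members were chosen by name: 50 enzymes, carriers and regulators of these routes were looked up among the 10982 gene symbols of the deposited expression values, and 43 were listed there. Pfkm, Pgam1, Pdhb, Dld, Cs, Dlst and Tkt were not analysed here. The 8 libraries are 4 RNA-seq libraries and 4 libraries of ribosome footprints, the stretches of mRNA that ribosomes shield from micrococcal nuclease, made from 2 OPC cultures and the 2 oligodendrocyte cultures derived from them, each a pooled lysate of several dishes that gave both an RNA-seq and a footprint library.

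All cells were of the 129S/SvEv strain and came from epiblast stem cells, and all were grown on poly-L-ornithine and laminin in DMEM/F12 with N2 Max and B27. OPCs received 20 ng/mL bFGF and 20 ng/mL PDGFA. Oligodendrocytes received 100 ng/mL noggin, 100 ng/mL IGF-1, 10 uM cyclic AMP, 10 ng/mL NT3 and 40 ng/mL T3 (thyroid hormone) in place of both factors, after passages without bFGF, so that the cell type and the medium cannot be told apart. Differentiation leaves some cells undifferentiated, and a change in the share of a cell type and a change in RNA per cell cannot be told apart in these lysates.

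Glycolysis splits glucose into pyruvate, which either leaves as lactate through lactate dehydrogenase or enters mitochondria through the pyruvate carrier, where the pyruvate dehydrogenase complex turns it into acetyl-CoA for the TCA cycle. The pentose phosphate pathway branches off at glucose 6-phosphate. Its oxidative arm makes NADPH, the reductant of fatty acid and cholesterol synthesis, and its non-oxidative arm returns pentoses to glycolysis. Oligodendrocytes make large amounts of myelin lipid and are known to hand lactate to axons.

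Between OPCs and oligodendrocytes the routes did not move as a block. Transaldolase (Taldo1), cytosolic isocitrate dehydrogenase (Idh1) and both subunits of the mitochondrial pyruvate carrier (Mpc1 and Mpc2) rose in RNA and in footprints, Taldo1 by 5.67 times in mean RNA. Lactate dehydrogenase A (Ldha), triosephosphate isomerase (Tpi1), glucose phosphate isomerase (Gpi1), the pyruvate dehydrogenase subunits Pdha1 and Dlat, 2 subunits of the NAD-dependent isocitrate dehydrogenase (Idh3a and Idh3g), mitochondrial Idh2 and 6-phosphogluconolactonase (Pgls) fell in both. No member passed the test for a change in ribosome density, the ratio of footprints to RNA.

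The DNA just upstream of 4 of these genes is shown because they hold the largest rises (Taldo1 and Idh1) and the largest falls (Tpi1 and Ldha) among the members past the threshold in both kinds of library. The bases are those before the RefSeq start on GRCm38.p6, written 5′ to 3′ on the gene's strand. The Tpi1 and Idh1 runs stop where the Gencode transcript begins, and those of Ldha and Taldo1 stop 35 and 39 bases short of it. Capitals mark the core of the hypoxia response element, ACGTG or GCGTG on either strand, which the factor HIF-1 is known to bind in genes of glycolysis. The Ldha run spans chr7:46845554-46845803 on the plus strand, the Tpi1 run chr6:124814297-124814408 on the minus strand, the Taldo1 run chr7:141391910-141392159 on the plus strand and the Idh1 run chr1:65179182-65179392 on the minus strand.
Ldha: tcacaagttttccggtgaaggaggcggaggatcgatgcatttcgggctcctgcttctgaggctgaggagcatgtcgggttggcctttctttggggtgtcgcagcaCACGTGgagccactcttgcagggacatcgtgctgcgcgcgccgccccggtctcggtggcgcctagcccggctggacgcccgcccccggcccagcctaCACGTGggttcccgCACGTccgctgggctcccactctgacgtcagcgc
Tpi1: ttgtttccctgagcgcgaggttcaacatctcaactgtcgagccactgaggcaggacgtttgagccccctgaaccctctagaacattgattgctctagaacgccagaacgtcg
Taldo1: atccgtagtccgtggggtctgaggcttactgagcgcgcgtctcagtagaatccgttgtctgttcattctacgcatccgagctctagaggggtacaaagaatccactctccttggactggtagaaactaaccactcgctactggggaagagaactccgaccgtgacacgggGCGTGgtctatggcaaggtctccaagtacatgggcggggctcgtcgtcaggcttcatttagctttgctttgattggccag
Idh1: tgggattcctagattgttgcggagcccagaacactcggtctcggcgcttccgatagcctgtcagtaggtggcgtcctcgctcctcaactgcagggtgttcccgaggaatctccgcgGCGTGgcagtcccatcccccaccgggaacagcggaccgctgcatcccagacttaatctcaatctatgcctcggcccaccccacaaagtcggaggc

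Ldha holds 5 matches in its 250 bases, where overlapping matches on both strands count separately, Taldo1 and Idh1 hold 1 each, and the 112 bases shown for Tpi1 hold 0. Promoters of 41 of the 43 members were matched in the RefSeq table, each from 250 bases before the start to 50 after it, without Gpd1 and Idh3a. The core was found in 33 of the 41, or 80.5%, against 60.5% of the 8866 matched promoters of all listed genes and 43.8% of all 32851 promoters of the table. The median GC content was 62% in members and 60.7% in listed genes. The core was present in 5 of 5 members that rose in RNA and in 10 of 14 that fell, where Gpi1, Tpi1, Dlat and Suclg2 lacked it. The half-site AGGTCA, bound by thyroid hormone and other nuclear receptors, was found on either strand in 7 of the 41 (17.1%), in 11.8% of the listed genes' promoters and in 16.3% of all. It stood in 0 of the 5 that rose and in 4 of the 14 that fell, namely Aldoa, Tpi1, Idh3g and Fh1. A match is a run of letters and not a site that was shown to be bound.

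Values are FPKM, fragments scaled to length and to the number mapped, over the whole transcript for RNA-seq and over the coding sequence (CDS) for footprints. Fold changes compare oligodendrocytes with OPCs after log2(FPKM + 0.1), which understates changes of low transcripts. The threshold is an adjusted p-value under 0.05 by limma with Benjamini-Hochberg adjustment over all transcripts of a mean of at least 1 FPKM. With 2 cultures a group an exact permutation test cannot go below 0.33, so these p-values rest on the spread that limma shares between transcripts, and each spread between replicates is that of 2 cultures of cells of 1 origin.

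Facts of all libraries frame these values. The depth, estimated from the smallest steps of the values with a possible factor of 2, was 77.9 to 241 Mb (megabases) aligned for RNA-seq and 93.2 Mb for the footprints of oligodendrocyte replicate 2, with at least 208 Mb in the other footprint libraries. In the footprints of that replicate 31.1% of listed transcripts were at 0, against 14.7% to 20.5% in the other footprint libraries, and 5 members were at 0 there. Of 10 oligodendrocyte markers 7 were listed, and 7 of 7 rose in RNA (summed level 34.3 and 36.7 FPKM in OPCs, 3271 and 3743 in oligodendrocytes), with Mag, Mog and Myrf at 0 in OPC RNA. Mbp, Mobp and Opalin were not analysed here. Of 5 listed OPC markers 3 rose in oligodendrocytes (Pdgfra, Lhfpl3 and Pcdh15) and 0 fell, with a summed RNA level of 361 and 382 FPKM in OPCs and 478 and 530 in oligodendrocytes. The cycling genes Top2a and Ccnb1, 2 of 5 listed, both fell (120 and 175 FPKM together in OPCs, 31.6 and 35.9 in oligodendrocytes). Of 5 listed astrocyte markers 2 rose (Gfap and Slc1a2) and 1 fell (Slc1a3), with summed levels of 214 and 231 against 151 and 186 FPKM. Of 5 neuronal markers Tubb3 rose, with summed levels of 15.9 and 21.8 against 46 and 49 FPKM, and the 1 listed microglial marker (Csf1r) stayed under 0.1 FPKM. The part of these changes in the enzymes' values was not tested.

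**Figure D1:**
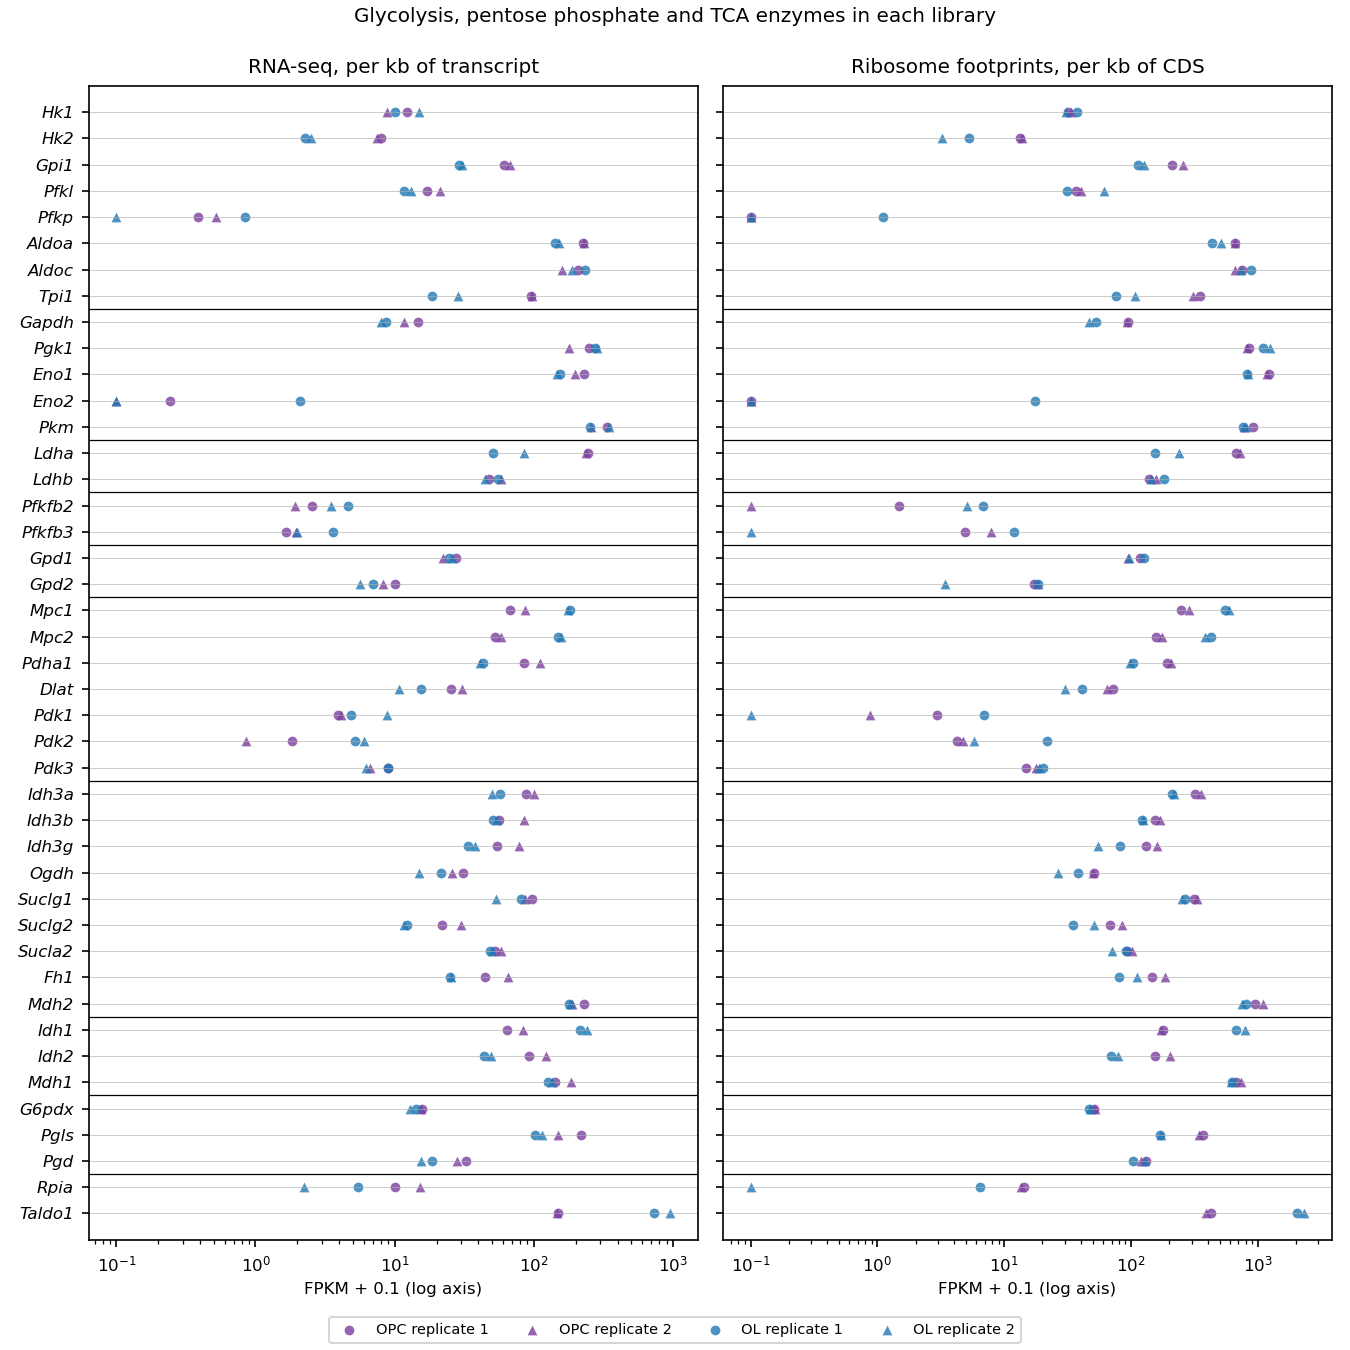
FPKM + 0.1 on a log axis for the 43 listed members, RNA-seq on the left and footprints on the right, with 1 mark per library (purple OPC, blue oligodendrocyte, circles replicate 1, triangles replicate 2) and lines between roles. Taldo1 in the bottom row lies at 147 to 149 FPKM in OPC RNA and at 729 to 952 in oligodendrocyte RNA, and Ldha at 239 to 244 and at 50.4 to 84.3.

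Of the 41 members tested in RNA, 5 rose, 15 fell and 21 did not pass. Among all 8346 transcripts tested, 13.0% passed as higher and 20.2% as lower. With median-ratio scaling of the libraries 1344 and 1264 of 8337 transcripts did, and 5 and 12 members. The median log2 fold change of the members was -0.48, beside -0.23 for all transcripts. In footprints 4 of 42 members rose and 11 fell, against 12.8% and 10.8% of 8342 transcripts, and the medians were -0.40 and -0.16. In both kinds at once 4 rose and 9 fell (9.72% and 8.95% of 8056 transcripts), and 0 passed in opposite directions. These counts lean on the OPC replicates and on oligodendrocyte replicate 2, as do those of all transcripts, and a fit without 1 culture leaves 1 in its group. Without OPC replicate 1 the members' median in RNA was -0.39 (all transcripts -0.22), and without OPC replicate 2 it was -0.47 (-0.22). Without oligodendrocyte replicate 1 it was -0.53 (-0.30) and without oligodendrocyte replicate 2 -0.38 (-0.14). In footprints the medians in the same order were -0.42 (-0.15), -0.31 (-0.14), -0.44 (-0.31) and -0.27 (0.07). Without the variance trend 5 members rose and 7 fell in RNA, beside 882 and 1193 of 8346 transcripts. The RNA calls of Fh1, Aldoa, Pgls, Dlat, Idh3g, Rpia, Pgd and Idh3a ended there. In footprints 3 rose and 1 fell (Tpi1), beside 671 and 365 of 8342 transcripts. Taldo1, Mpc2 and Idh1 passed in RNA under each of the 11 alternatives run.

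**Figure D2:**
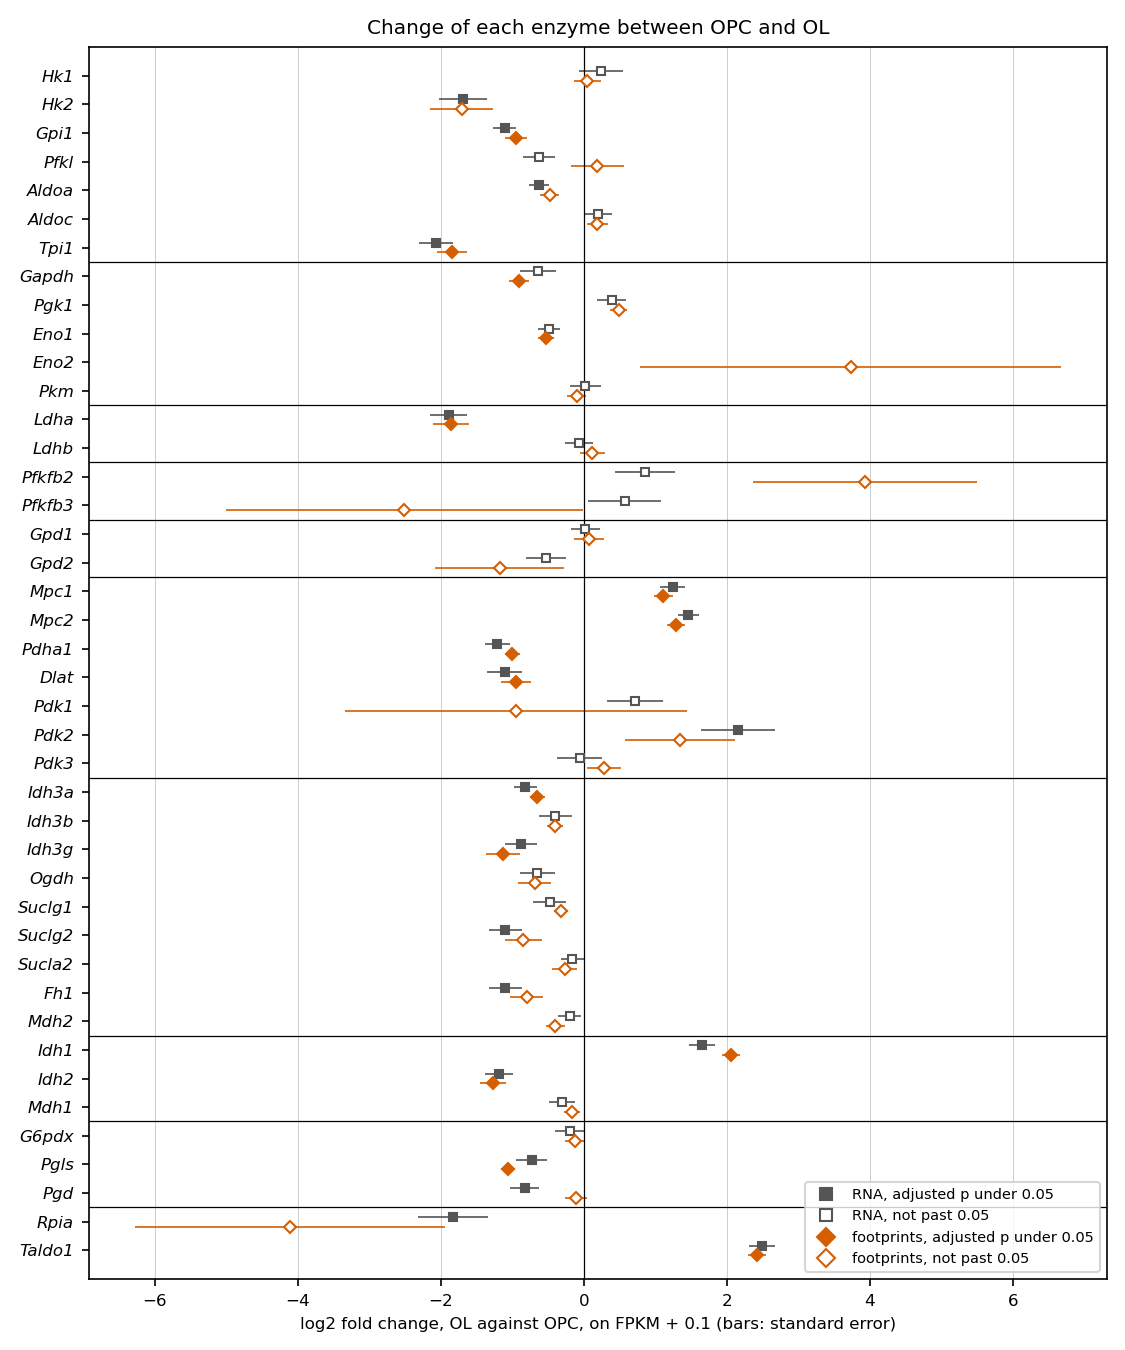
Log2 fold change of oligodendrocytes against OPCs with its standard error for the 42 members tested, in RNA (grey squares) and footprints (orange diamonds), filled where the adjusted p-value is under 0.05 and grouped by role. The filled marks to the right of 0 are Taldo1, Idh1, Mpc1, Mpc2 and, in RNA, Pdk2, and the wide bars belong to transcripts that are at 0 or a few FPKM in a footprint library.

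Upper glycolysis, from hexokinase to triosephosphate isomerase, had 0 of 7 tested members higher and 4 lower in RNA. Tpi1, which interconverts both triose phosphates, measured 94.6 and 97.6 FPKM in OPC RNA and 18.4 and 28.2 in oligodendrocyte RNA. Both oligodendrocyte values lay below both OPC values, and the log2 fold change was -2.07 (SE 0.24, limma adjusted p = 0.0029). Its footprints went from 351 and 308 FPKM to 76.1 and 108, a log2 fold change of -1.85 (SE 0.21, limma adjusted p = 0.012). Gpi1, which converts glucose 6-phosphate to fructose 6-phosphate, fell from 64.2 ± 4.04 to 29.6 ± 1.04 FPKM (mean ± SD, n = 2 cultures) in RNA and from 233 ± 32.4 to 120 ± 9.02 in footprints.

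Hexokinase 2 (Hk2), an isozyme that traps glucose in the cell, had 7.86 and 7.34 FPKM in OPC RNA and 2.17 and 2.4 in oligodendrocyte RNA. Its log2 fold change was -1.69 (SE 0.33, limma adjusted p = 0.0134). In footprints its 13.1 and 13.7 FPKM stood against 5.18 and 3.15, not past the threshold (log2 fold change -1.71, SE 0.44, adjusted p = 0.063), though past it with median-ratio scaling (adjusted p = 0.0453). Hexokinase 1 (Hk1), the isozyme of most brain cells, overlapped between groups, with 12.1 and 8.77 FPKM in OPCs and 9.92 and 14.9 in oligodendrocytes.

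Aldolase A (Aldoa), which splits fructose 1,6-bisphosphate, fell in RNA from 228 ± 2.28 to 147 ± 6.85 FPKM (log2 fold change -0.63, SE 0.14), a call that ended with median-ratio scaling (adjusted p = 0.0868), and in footprints it passed with the cultures paired by a replicate block (adjusted p = 0.0481). Aldolase C (Aldoc), the other aldolase of the brain, had 209 and 159 FPKM in OPCs and 235 and 187 in oligodendrocytes, and these ranges overlap. The liver-type phosphofructokinase Pfkl, at the committed step, had 19.1 ± 3.03 and 12.2 ± 0.962 FPKM in RNA and did not pass (adjusted p = 0.0769), and in footprints its groups overlapped. The platelet-type Pfkp stayed under 1 FPKM in RNA and was not tested.

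Of lower glycolysis, 0 of 4 tested members passed in RNA and 2 of 5 fell in footprints. Enolase 1 (Eno1), which makes phosphoenolpyruvate, had footprints of 1217 and 1168 FPKM in OPCs and 813 and 838 in oligodendrocytes (log2 fold change -0.53, SE 0.11, limma adjusted p = 0.0389), a call that ended with median-ratio scaling (adjusted p = 0.124). In RNA its 229 and 196 stood against 154 and 147 FPKM (adjusted p = 0.0555), past the threshold with the replicate block (adjusted p = 0.0275) or a minimum of 5 FPKM (adjusted p = 0.0465). Gapdh, the glyceraldehyde phosphate dehydrogenase, fell in footprints from 93.4 ± 0.342 to 49.6 ± 5.01 FPKM. Its RNA was listed at only 7.88 to 14.5 FPKM, and 94% of its 30-base words recur elsewhere in the genome.

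Phosphoglycerate kinase 1 (Pgk1) and pyruvate kinase (Pkm), which each make ATP, were among the most abundant members per length. Pgk1 measured 251 and 180 FPKM in OPC RNA and 273 and 285 in oligodendrocyte RNA, with both oligodendrocyte values above both OPC values, and did not pass (log2 fold change 0.39, SE 0.20, adjusted p = 0.177). Its footprints of 844 and 816 against 1094 and 1234 FPKM passed with the replicate block (adjusted p = 0.0396, against 0.0614 without it). Pkm measured 335 and 257 against 255 and 347 FPKM, and the groups overlapped. Neuronal enolase 2 (Eno2) was at 1.99 FPKM in RNA and 17.5 in footprints of oligodendrocyte replicate 1 and at 0 in both libraries of replicate 2.

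Ldha, the lactate dehydrogenase subunit that favours lactate formation, was the member with the second largest fall in RNA. It measured 244 and 239 FPKM in OPC RNA and 50.4 and 84.3 in oligodendrocyte RNA, a log2 fold change of -1.89 (SE 0.26, limma adjusted p = 0.00486). Its footprints went from 667 and 724 FPKM to 153 and 239 (log2 fold change -1.86, SE 0.25, limma adjusted p = 0.0156). Ldhb, the subunit that favours the reverse reaction, overlapped between groups at 44.8 to 58.3 FPKM in RNA. The regulators Pfkfb2 and Pfkfb3, which set fructose 2,6-bisphosphate and thereby phosphofructokinase activity, stayed between 1.55 and 4.52 FPKM in RNA and did not pass, nor did Gpd1 and Gpd2 of the glycerol phosphate shuttle, which carries reducing equivalents into mitochondria.

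The proteins that bring pyruvate into the TCA cycle divided. Mpc1 and Mpc2, which form the carrier of the inner mitochondrial membrane as a heterodimer, both rose. Mpc2 measured 52.9 and 58.4 FPKM in OPC RNA and 149 and 157 in oligodendrocyte RNA (log2 fold change 1.46, SE 0.15, limma adjusted p = 0.00218). Mpc1 measured 67.7 and 85.8 against 182 and 177 FPKM (log2 fold change 1.24, SE 0.17, limma adjusted p = 0.00505). The footprints of Mpc2 rose from 166 ± 14.2 to 405 ± 33.7 FPKM and those of Mpc1 from 265 ± 29.6 to 571 ± 24.6.

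Of the pyruvate dehydrogenase complex, the next step, the listed members Pdha1 and Dlat moved the other way. The E1 alpha subunit Pdha1 had 84.9 and 111 FPKM in OPC RNA and 42.9 and 40.9 in oligodendrocyte RNA (log2 fold change -1.21, SE 0.18, limma adjusted p = 0.00664). The E2 subunit Dlat had 25.5 and 30.3 against 15.4 and 10.7 (log2 fold change -1.11, SE 0.25, limma adjusted p = 0.0212). In footprints Pdha1 went from 200 ± 9.66 to 100 ± 3.61 FPKM and Dlat from 68.3 ± 5.81 to 35.6 ± 7.65, both past the threshold, though Dlat not with no minimum (adjusted p = 0.0506). Pdhx, another component of the complex that is not a member, rose in footprints from 38.5 and 44.5 to 72.9 and 66.6 FPKM (limma adjusted p = 0.0391). Its RNA, at 18.8 and 27.2 against 37.1 and 35.8 FPKM, did not pass (limma adjusted p = 0.0645). Pdk2, a kinase that switches the complex off, rose in RNA from 1.72 and 0.761 FPKM to 5.12 and 5.88 (log2 fold change 2.16, SE 0.52, limma adjusted p = 0.0255). Its footprints of 4.11 and 4.59 against 21.7 and 5.68 FPKM did not pass. The kinases Pdk1 and Pdk3 did not pass in RNA or in footprints.

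In the TCA cycle 0 of 9 members rose and 4 fell in RNA, and 9 of 9 had a log2 fold change below 0 in both kinds, where 60% of all transcripts were below 0 in RNA and 55.5% in footprints. After median-ratio scaling of the libraries Sucla2 stood at 0.02 in RNA and the other 8 below 0. Fumarate hydratase (Fh1) had 44.4 and 65.6 FPKM in OPC RNA and 24.7 and 25.5 in oligodendrocyte RNA, a log2 fold change of -1.10 (SE 0.23, limma adjusted p = 0.0169). Suclg2, the GTP-forming subunit of succinyl-CoA ligase, fell from 21.9 and 29.7 to 12.2 and 11.5 FPKM. Neither passed in the footprint fit, where Fh1 measured 146 and 185 against 79.9 and 111 FPKM (adjusted p = 0.0798, with the block 0.0243) and Suclg2 67.9 and 84.5 against 34.7 and 51.1 (adjusted p = 0.0896, with the block 0.0441).

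The catalytic subunit Idh3a and the regulatory subunit Idh3g of the NAD-dependent isocitrate dehydrogenase fell in both kinds. Idh3a measured 88.3 and 99.5 against 57 and 49.6 FPKM in RNA and 317 and 357 against 210 and 218 in footprints, and Idh3g 54.5 and 77.6 against 33.3 and 37.4 in RNA and 132 and 161 against 80.9 and 54.9 in footprints. With median-ratio scaling the RNA call of Idh3g (adjusted p = 0.0685) and the footprint call of Idh3a (adjusted p = 0.0664) ended, and with the replicate block the footprint call of Idh3g (adjusted p = 0.0632). Idh3b, the third subunit, had 56.1 and 85 against 50.6 and 54.3 FPKM in RNA and did not pass. Ogdh, Suclg1, Sucla2 and mitochondrial malate dehydrogenase (Mdh2) had RNA log2 fold changes from -0.65 to -0.16 and did not pass, though Ogdh did with the replicate block (adjusted p = 0.0399).

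Both NADP-dependent isocitrate dehydrogenases, which make NADPH from isocitrate in different compartments, changed in opposite directions. Idh1, in the cytosol and peroxisomes, measured 63.8 and 83.2 FPKM in OPC RNA and 216 and 241 in oligodendrocyte RNA (log2 fold change 1.65, SE 0.18, limma adjusted p = 0.00276). In footprints it went from 177 and 171 to 665 and 791 FPKM (log2 fold change 2.06, SE 0.13, limma adjusted p = 0.00518). Idh2, in mitochondria, fell from 91.8 and 123 to 43.5 and 49.5 FPKM in RNA (log2 fold change -1.19, SE 0.20, limma adjusted p = 0.00837) and from 154 and 204 to 69.3 and 78.2 in footprints (log2 fold change -1.27, SE 0.18, limma adjusted p = 0.0187). Cytosolic malate dehydrogenase (Mdh1) had 163 ± 29.7 and 131 ± 7.01 FPKM in RNA and did not pass.

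The oxidative arm of the pentose phosphate pathway had 2 of 3 members lower in RNA. Glucose 6-phosphate dehydrogenase (G6pdx), its entry enzyme, differed little, with 15.6 and 15.4 FPKM in OPC RNA and 14.1 and 12.8 in oligodendrocyte RNA (log2 fold change -0.20, SE 0.20, adjusted p = 0.474). Pgls, the second enzyme, fell from 219 and 149 to 102 and 115 FPKM in RNA (limma adjusted p = 0.0487), a call that held in 3 of 11 alternatives and ended with a pseudocount of 0.01 (adjusted p = 0.0562), no minimum (0.0715), median-ratio scaling (0.129) and no variance trend (0.126). Its footprints fell from 369 and 342 to 168 and 172 in footprints (log2 fold change -1.06, SE 0.10, limma adjusted p = 0.00905). Pgd, the third, fell in RNA from 32.3 and 27.8 to 18.6 and 15.3 FPKM (log2 fold change -0.83, SE 0.20, limma adjusted p = 0.0278), and its footprints overlapped at 131 and 119 against 104 and 129.

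In the non-oxidative arm Taldo1, which moves a 3-carbon unit between sugar phosphates, measured 149 and 147 FPKM in OPC RNA and 729 and 952 in oligodendrocyte RNA. This was the largest rise of a member in RNA, a log2 fold change of 2.49 (SE 0.18, limma adjusted p = 0.00089). Its footprints went from 423 and 389 to 2029 and 2319 FPKM (log2 fold change 2.42, SE 0.13, limma adjusted p = 0.00414). In oligodendrocyte RNA Taldo1 had the highest level per length of the 43 members in both cultures. Ribose 5-phosphate isomerase (Rpia), which makes the ribose of nucleotides, fell in RNA from 9.98 and 15.1 to 5.36 and 2.13 FPKM (log2 fold change -1.83, SE 0.49, limma adjusted p = 0.0373), a call that ended with no minimum (adjusted p = 0.0617). Its footprints were 14.1 and 13.4 in OPCs, 6.33 in oligodendrocyte replicate 1 and 0 in replicate 2.

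Within families of isozymes the mixture was compared as the share of each transcript in the summed FPKM of its family, a ratio within 1 library that no scaling between libraries can move. Idh1 made up 41% and 40.4% of Idh1 and Idh2 RNA in OPCs and 83.3% and 83% in oligodendrocytes. Hk1 made up 60.7% and 54.5% of both hexokinases in OPCs and 82.1% and 86.2% in oligodendrocytes. Ldhb made up 16.2% and 19.6% of lactate dehydrogenase RNA in OPCs and 52.4% and 34.7% in oligodendrocytes, where Ldha fell and Ldhb did not pass. In these 3 families, and for Aldoc (44.5% ± 4.96 against 58.7% ± 5.08), the ATP-forming Sucla2 against Suclg2 (68.3% ± 3.12 against 80.6% ± 0.865) and Pdk2 among the 3 kinases (9.29% ± 3.67 against 27.9% ± 0.616), both oligodendrocyte cultures lay above both OPC cultures. The same held in footprints for these 6 transcripts, for example Ldhb at 17.3% and 17.9% against 54.3% and 37.4%. In the glycerol phosphate shuttle Gpd1 held 73.6% and 73.3% of the pair in OPC RNA and 78.2% and 82.3% in oligodendrocyte RNA, and in footprints too the oligodendrocyte cultures lay above. The shares overlapped in both kinds for Pfkl, at 94% or more of Pfkl and Pfkp, and for Eno1, at 97.9% or more of both enolases. They also did for Pdk1 among the 3 kinases (26.3% and 35.4% against 25.3% and 42.1% in RNA). Pdk3 lay lower in oligodendrocyte RNA (61.8% and 57.9% against 47.2% and 29.6%) and overlapped in footprints. Pfkfb3 in Pfkfb2 and Pfkfb3 overlapped in RNA (38.7% and 50.7% against 43.6% and 35.9%) and lay lower in oligodendrocyte footprints (77.8% and 100% against 64.2% and 0%). Each comparison of non-overlapping cultures has an exact permutation p = 0.33 (two-sided, n = 2 against 2), the smallest this design allows, before any adjustment for the number of shares compared.

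**Figure D3:**
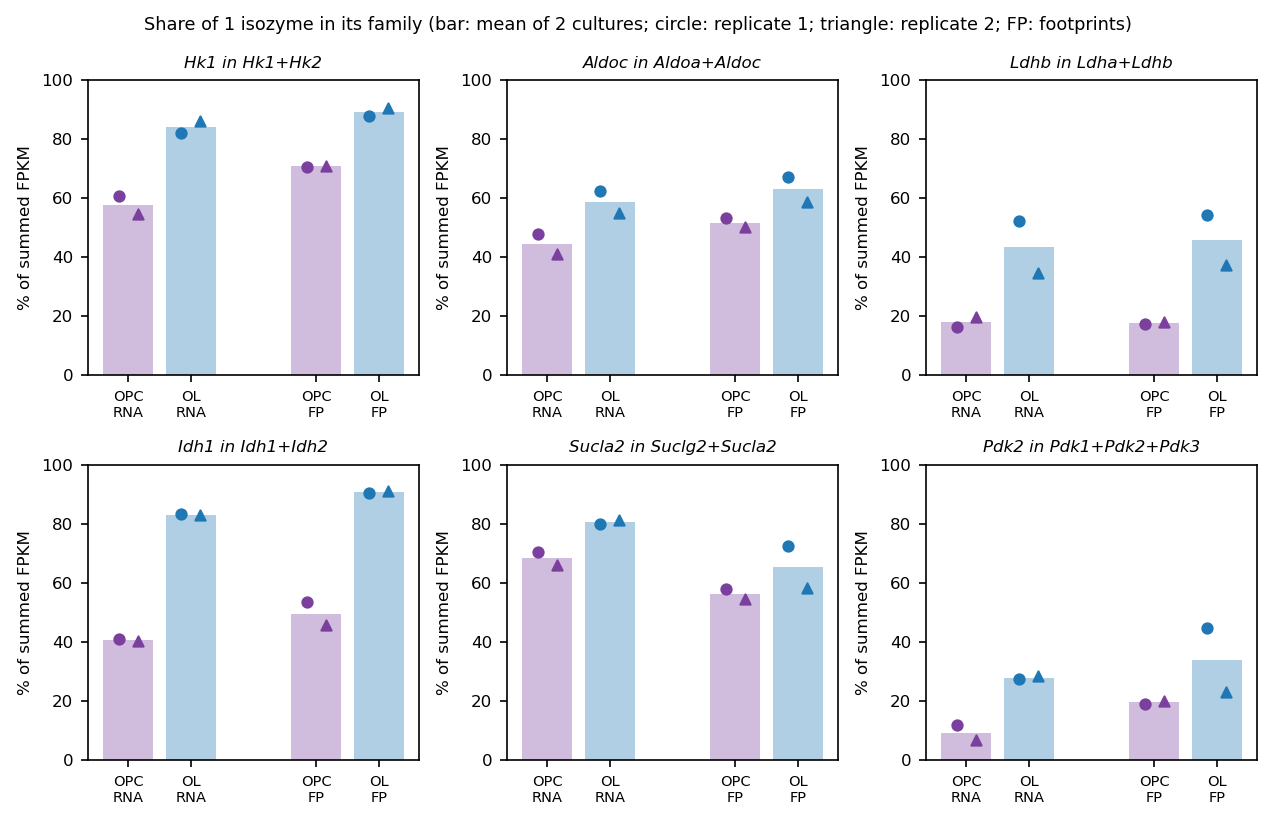
Share of 1 transcript in the summed FPKM of its isozyme family, in percent, for 6 families in RNA and footprints (FP), with bars for the mean of 2 cultures and marks for each culture. The oligodendrocyte marks lie above the OPC marks in all 12 pairs of groups shown, which leave out the families that overlapped and the pairs Gpd1 with Gpd2 and Pfkfb2 with Pfkfb3, and the oligodendrocyte cultures lie farthest apart for Ldhb and for Pdk2 footprints. The transcript drawn from each family was chosen as one whose share was higher in oligodendrocytes, and in a family of 2 the share of the other is correspondingly lower.

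Shares were also taken among subunits of 1 complex. Mpc1 was 57.8% ± 2.41 of both carrier subunits in OPC RNA and 54% ± 1.29 in oligodendrocyte RNA, with both oligodendrocyte cultures lower there and in footprints. Pdha1 was 77.7% ± 1.1 of Pdha1 and Dlat in OPCs and 76.4% ± 3.99 in oligodendrocytes, with overlapping cultures. Of the summed Idh3 RNA, Idh3a held 41.2% ± 4.56 in OPCs and 37.8% ± 3.79 in oligodendrocytes, which overlap, while Idh3b held 30.3% ± 2.99 and 37.2% ± 1.8, which do not, nor do the 28.5% ± 1.57 and 25% ± 1.99 of Idh3g. In footprints Idh3g held 22.6% ± 1.04 and 16.7% ± 4.13.

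Summed over all listed members of a role, upper and lower glycolysis together held 0.465% and 0.397% of the summed FPKM of OPC RNA libraries and 0.411% and 0.456% of oligodendrocyte RNA libraries, which overlap. The TCA cycle enzymes held 0.215% and 0.229% in OPCs and 0.183% and 0.179% in oligodendrocytes. In footprints the order of these shares differed. Glycolysis held 0.569% and 0.575% in OPCs and 0.584% and 0.675% in oligodendrocytes, both above. The TCA cycle enzymes held 0.248% and 0.301% against 0.233% and 0.249%, which overlap. The summed FPKM themselves were lower in both oligodendrocyte cultures. For glycolysis they were 1458 and 1236 against 1142 and 1214 in RNA, and 5113 and 4820 against 4318 and 4499 in footprints. For the TCA cycle they were 674 and 713 against 507 and 477 in RNA, and 2227 and 2528 against 1718 and 1660 in footprints. The non-oxidative pentose phosphate pair went in RNA from 0.0507% and 0.0522% to 0.265% and 0.358%, nearly all of it Taldo1, and both lactate dehydrogenases from 0.0928% and 0.0955% to 0.0381% and 0.0485%.

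Ribosome density (RD), the footprint FPKM divided by the RNA-seq FPKM of the same culture, was high for these enzymes relative to the other transcripts. The median RD of the members was 2.84 and 2.94 in OPC replicates 1 and 2 and 3.04 and 3.23 in oligodendrocytes, beside 1.72, 1.77, 2.02 and 1.95 for all transcripts tested. In OPC replicate 1, 33 of 41 members lay above the median of all, and in oligodendrocyte replicate 1, 34 of 41. Gapdh had the highest RD in OPCs, at 6.47 and 8.1, and Eno1 lay at 5.31 and 5.95. Idh2 lay below the median of all in 4 of 4 cultures, at 1.58 to 1.68. These are levels within a culture, set by different lengths for RNA and footprints, and they do not bear on a change between cell types.

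For the change in RD between cell types, 0 of 41 members passed the threshold in limma's interaction test over the 8 libraries, where 0.0124% of 8056 transcripts (1 transcript) did. At an unadjusted p under 0.05, 1 member passed against 4.80% of all. The member was Pgd, with an RD of 4.06 and 4.28 in OPCs and 5.62 and 8.39 in oligodendrocytes, a log2 fold change of 0.71 (SE 0.24, limma adjusted p = 0.875). The median change of the members was 0.00 on the log2 scale and that of all transcripts 0.10. For the 4 members that rose in both kinds the log2 change in RD was -0.07 for Taldo1 (SE 0.23), 0.41 for Idh1 (SE 0.23), -0.13 for Mpc1 (SE 0.21) and -0.17 for Mpc2 (SE 0.17), and for Tpi1 and Ldha it was 0.22 (SE 0.35) and 0.03 (SE 0.41). Without oligodendrocyte replicate 1, which leaves replicate 2 alone in its groups, Pdk1, Gpd2, Rpia and Pfkfb3 passed as lower, beside 730 of 7910 transcripts, and 3 of the 4 are at 0 in the footprints of replicate 2.

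**Figure D4:**
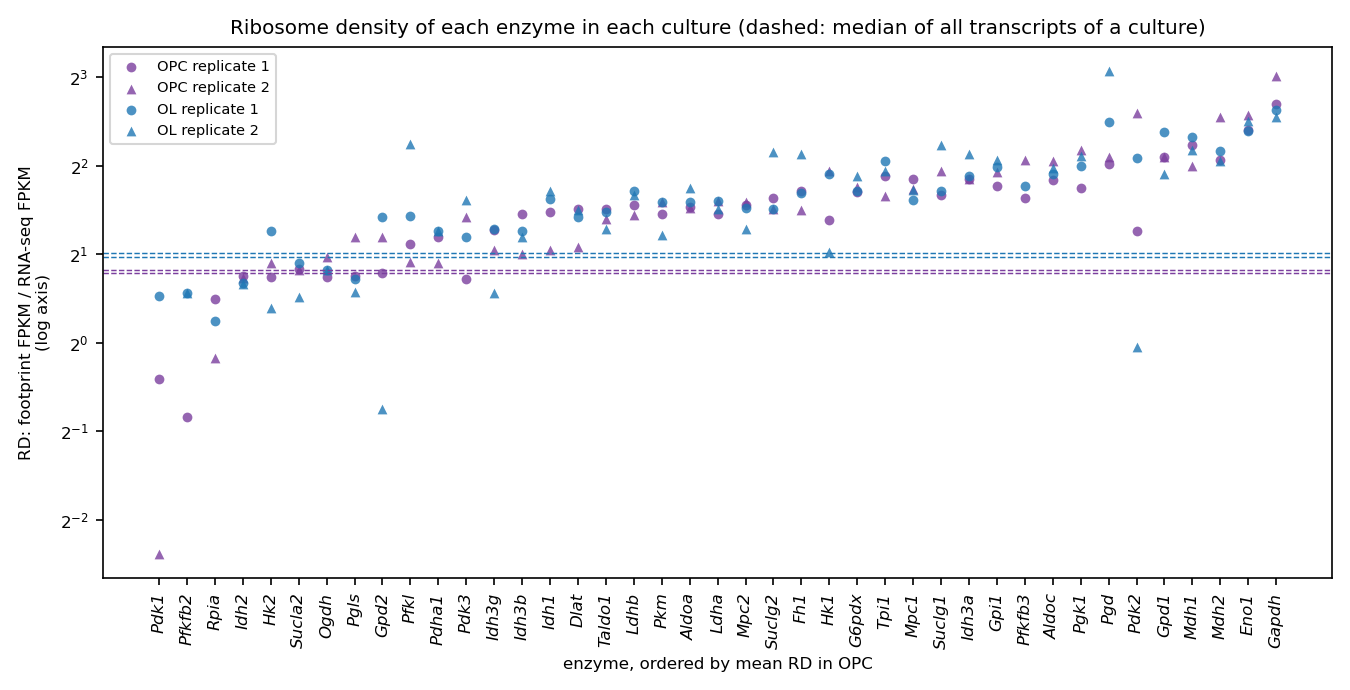
RD of the 41 members tested, on a log axis, in each of the 4 cultures, ordered by the mean RD in OPCs, with dashed lines at the median of all transcripts in each culture. Most marks lie above the dashed lines, and the cultures of both cell types intermingle for most enzymes, with Pgd higher in both oligodendrocyte cultures.

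The study asks how codon use bears on mRNA in oligodendrocytes, so the use of Phe and Lys codons is given. The UUU share of Phe codons had a median of 0.417 over the 43 members and 0.429 over all transcripts. The AAA share of Lys codons had a median of 0.3 in members and 0.368 in all, and 30 of the 43 members lay below the latter. Among the 5 members that rose in RNA the AAA share ran from 0.219 (Taldo1) to 0.875 (Mpc2), and among the 15 that fell from 0.0385 (Aldoa) to 0.475 (Dlat).

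Several of these transcripts resemble other places in the genome, and reads may have been split between them in the authors' processing. The share of a transcript's 30-base words that recur elsewhere in GRCm38 was 10% or more for 14 members. These were Pgk1 (94.1%), Gapdh (94%), Mpc1 (86.8%), Eno1 (77.5%), Pkm (64.4%), Ldha (61.5%), Ldhb (53.7%), Suclg2 (50.7%), Aldoa (42%), Gpi1 (41.8%), Tpi1 (40.1%), Taldo1 (28.4%), G6pdx (15.4%) and Mpc2 (10.2%). Their values are less certain for it, by an amount that was not measured. Among the 29 members under 10%, 2 rose and 10 fell in RNA, and 1 rose (Idh1) and 6 fell in both kinds. Exons of 11 members overlap a gene on the opposite strand and of 2 members (Pkm and Pfkfb2) one on the same strand, and without a strand setting such reads cannot be told apart.

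The members past the threshold in both kinds lie on GRCm38 as follows in Gencode vM21. Taldo1 has 8 exons on chromosome 7 from 141392199 to 141402968 on the plus strand, Idh1 9 exons on chromosome 1 from 65158616 to 65179181 on the minus strand, Mpc1 5 exons on chromosome 17 from 8283762 to 8297661 on the plus strand and Mpc2 5 exons on chromosome 1 from 165461037 to 165481214 on the plus strand. Tpi1 has 7 exons on chromosome 6 from 124810586 to 124814296 on the minus strand, Ldha 8 exons on chromosome 7 from 46845839 to 46855627 on the plus strand, Idh2 11 exons on chromosome 7 from 80094846 to 80115392 on the minus strand and Pdha1 11 exons on chromosome X from 160122209 to 160138413 on the minus strand.

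Other genes of the same pathways, carriers, gluconeogenic and anaplerotic enzymes among them, were read from a list of 62, of which 43 were listed and 34 tested in RNA. In RNA 5 rose and 7 fell, with a median log2 fold change of -0.08, and in footprints 4 of 36 rose and 4 fell, beside 13.0% and 20.2% of all transcripts in RNA and 12.8% and 10.8% in footprints. Pck2, the mitochondrial phosphoenolpyruvate carboxykinase, fell from 32 and 18.7 to 5.57 and 4.51 FPKM (log2 fold change -2.27, SE 0.33, limma adjusted p = 0.00552). Slc25a10, the mitochondrial dicarboxylate carrier, fell from 29.2 and 16.5 to 6.87 and 3.79 FPKM, and Prps2, a phosphoribosyl pyrophosphate synthetase downstream of Rpia, from 25.7 and 38.7 to 9.08 and 6.91. Slc25a13, an aspartate-glutamate carrier, was at 2.44 and 1.89 FPKM in OPCs and at 0.244 and 0 in oligodendrocytes. Shpk, which makes sedoheptulose 7-phosphate, a substrate of transaldolase, rose from 0.897 and 0.848 to 4.27 and 2.87 FPKM, and Fbp1, a gluconeogenic bisphosphatase, was listed at 0 in both OPC cultures and at 0.944 and 4.82 FPKM in oligodendrocytes.

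Since glycolytic genes are classical targets of the hypoxia factor HIF-1, other known targets were read too, of which the listed carriers Slc2a1 and Slc16a3 are also among the pathway genes above. Of 20 named, 13 were listed and 9 tested in RNA, where 2 rose and 1 fell, beside 13.0% and 20.2% of all transcripts. The mitophagy receptor Bnip3 rose from 4.62 and 3.99 to 13.2 and 17.9 FPKM in RNA (log2 fold change 1.81, SE 0.28, limma adjusted p = 0.00688), while its footprints were at 9.33 and 10 in OPCs and at 35.4 and 0 in oligodendrocytes. The collagen hydroxylase P4ha1 rose from 24 and 23.9 to 37.7 and 44 FPKM, and the oxygen sensor Egln3 fell from 6.82 and 7.99 to 2.43 and 1.91. In footprints 3 of 9 rose (P4ha1, Bnip3l and Slc2a1) and 0 fell, beside 12.8% and 10.8% of all transcripts. Of 3 listed genes of the HIF-1 pathway, Hif1a and Arnt, which encode the subunits of HIF-1, did not pass in RNA or in footprints. Vhl, which marks HIF-1 for degradation, rose from 30.5 and 28.8 to 46.1 and 52.9 FPKM in RNA.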

How the data were processed

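RNA-seq and ribosome footprints were measured in 2 cultures each of OPCs and oligodendrocytes, grouped by the labels. The authors clipped adapters with fastx_clipper, keeping reads of at least 18 nt, aligned them to GRCm38 with HISAT2 2.1.0 and tabulated FPKM with StringTie 1.3.5 and ballgown for canonical coding transcripts of Gencode vM9, over the whole transcript for RNA-seq and over the CDS for footprints. Reads that fit several places may have been divided or lost in these steps, which touches members with close copies. No strand option is given in the authors' code.

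The FPKM were used as deposited. Each comparison was fitted with limma 3.58.1 (R 4.3.3) over all transcripts whose mean reached 1 FPKM. Values entered as log2(FPKM + 0.1), the prior variance followed abundance, tests were two-sided and Benjamini-Hochberg adjusted p-values were called at 0.05. RNA-seq and footprints were fitted over 4 libraries each and the change in RD as an interaction over 8. The fits were also run on simulated data with normal noise of the spread that limma gave here, independent between libraries. Such data cannot check that spread or the pairing of cultures. RNA-seq and footprints of the same culture came from the same lysate, and their deviations from the group means correlated at 0.22 in OPCs and 0.166 in oligodendrocytes (Pearson's r across 8056 transcripts, which are not replicates). The study's methods state that the oligodendrocytes were differentiated from the OPC replicates, and the labels number both alike. Deviations of same-numbered cultures correlated at 0.108 in RNA and 0.086 in footprints. The fit without this pairing is the main one, and values with a replicate block stand beside the calls they change. Depth and read counts are not part of the values, so no counting intervals are given. The estimate of depth takes the step between low values of FPKM times length as 1 aligned base. Shared words are runs of 30 bases of the transcript found anywhere else in the genome on either strand. Promoters were taken from RefSeq (GRCm38.p6) and gene models from Gencode vM21, and no protein sequence was used here.

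The members and lists were chosen with earlier results of these data known. Members past the threshold and members of isozyme families and complexes are given by library and the others by range and count. Of the 2 other lists (pathway genes and HIF-1 targets, with genes of the HIF-1 pathway), those past the threshold in RNA or RD are named, at most 6 a list by absolute log2 fold change. Pdhx, Hif1a and Arnt are named besides. Alternatives were the pseudocount, the minimum, median-ratio scaling, the variance trend, a block and leaving out each culture.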

Additional observations from a re-analysis of the deposited data

How the results depend on the processing

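No member that passed the threshold changed direction under any alternative. The median log2 fold change in RNA moved from -0.48 to -0.30 with median-ratio scaling (5 members higher and 12 lower), which moved that of all transcripts from -0.23 to -0.05, so that the members stayed 0.25 below it. That of RD moved to -0.16, beside -0.06 for all. Without the variance trend 7 members fell in RNA and 1 in footprints, in place of 15 and 11. The calls of all transcripts then dropped from 33.2% to 24.9% in RNA and from 23.6% to 12.4% in footprints. Leaving out each culture in turn gave 3 to 4 members higher and 0 to 12 lower in RNA, 0 to 4 higher and 0 to 13 lower in footprints and 0 to 4 lower in RD, with medians from -0.53 to -0.38 in RNA, from -0.44 to -0.27 in footprints and from -0.05 to 0.08 in RD. The lone culture is then assumed to vary like the other group, and 0 footprint transcripts passed without either OPC culture. The other pseudocounts (0.01 and 1), no minimum and a minimum of 5 FPKM kept each count within 1.5 times. Among members not past the threshold the sign changed under at least 1 alternative for 6 in RNA, 9 in footprints and 25 in RD.

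With the cultures paired by a replicate block, which leaves 1 residual degree of freedom for RNA and for footprints, 5 members rose and 17 fell in RNA, 5 and 13 in footprints, and 0 passed in RD. Of all transcripts 1250 rose and 2073 fell in RNA (of 8346) and 932 and 803 in footprints (of 8342). Beyond Eno1 and Ogdh in RNA and Fh1, Suclg2, Aldoa, Pgk1 and Idh3g in footprints, it changed no other call of a member. With the culture as a block 0 passed in RD. The cause of these differences was not tested.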
